A study of Mus musculus with 10 samples.

Results

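The genes examined here are 38 genes of the lysosome: soluble acid hydrolases and their cofactors, proteins of the limiting membrane, and subunits of the vacuolar proton pump (V-ATPase). They form a list by function, without the cathepsins, and their values here are not part of the rule that names them, although the list was drawn up with earlier results of these data known. Of the 38 genes, 37 were measured among the 22180 genes tested. *Glb1*, acid beta-galactosidase, was read by a single probe set that also carries the symbol *Tmppe* and was left out.

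Expression was measured in liver RNA of 10 mice on Affymetrix Mouse Gene 2.0 arrays, 1 for each mouse. The knockout livers came from 6 *Vps33b* fl/fl-AlfpCre mice (males 1 to 3, females 4 to 6), called knockout mice here. The controls were 4 Cre-negative *Vps33b* fl/fl mice (males 1 to 2, females 3 to 4), whose genotype label reads wild type and which carry the same floxed alleles. By label, all 10 mice ate chow with 0.5% of the primary bile acid cholic acid (CA) for 2 weeks from 10 weeks of age. The study's general methods give a younger starting age and a longer diet. Its account of the arrays gives a range of ages at sacrifice, and the labels fall within that range. Livers of mice on normal chow were not analysed here. AlfpCre is driven by albumin and alpha-fetoprotein regulatory sequences and deletes in hepatocytes and bile duct cells, so macrophages and other non-parenchymal cells of these livers keep *Vps33b*. Values are log2 signals after RMA, which corrects background, equalises the distributions of the arrays and summarises the probes of each gene. A signed value is knockout minus control, so that 1 stands for a doubling.

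Lysosomes are the acidic end station of endocytosis, phagocytosis and autophagy. The V-ATPase pumps protons into them, hydrolases made in the endoplasmic reticulum reach them mostly by mannose 6-phosphate sorting, and membrane proteins export the products of digestion. In liver both hepatocytes and macrophages hold many lysosomes, and hepatocyte lysosomes lie near the bile canaliculus and can release their contents into bile. VPS33B is a Sec1/Munc18 protein that acts with VIPAR in late endosomal and apical trafficking. Many lysosomal genes carry the palindromic E-box CACGTG near their start, where the transcription factors TFEB, TFE3 and MITF (the MiT/TFE family) can bind.

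The array values formed 1 compact set, with correlations between pairs of arrays of 0.982 to 0.991 and array medians of 4.71 to 4.82 on the log2 scale. *Vps33b* itself read 8.92 to 9.39 in knockout livers and 9.12 to 9.15 in control livers, a difference of 0.08 (SE 0.09, adjusted p = 0.739 from limma). Which exons its probe set reads is not given in the sources used here, so this value does not check the labels. In the fit of genotype and sex in limma, 690 genes (3.11%) were higher and 252 genes (1.14%) were lower in knockout livers at an adjusted p below 0.05. These whole-liver values cannot tell apart fewer cells of a type and less RNA per cell. No source used here gives the litter of a mouse, and the p-values measure the spread between these 10 mice.

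Because members of this family are known for a shared promoter motif, the 300 bases around each annotated start (250 before and 50 after, from RefSeq on build GRCm38.p6) were searched on both strands before the expression values are given. Windows were at hand for 31 of the 37 measured genes, 33 windows in all. The core CACGTG occurred in 10 of the 31 genes, or 32.3%, against 8.09% of all 27025 genes with a window. The longer form TCACGTG, which contains the core and reads as CACGTGA when seen from the opposite strand, occurred in the same 10 genes, against 4.29% of all genes. These genes are *Arsa*, *Atp6v0d1*, *Atp6v1a*, *Gaa*, *Gla*, *Lamp1*, *Lgmn*, *Mcoln1*, *Naglu* and *Sgsh*. The 8-base palindrome TCACGTGA occurred in 4 of them (*Atp6v0d1*, *Atp6v1a*, *Gla* and *Mcoln1*), against 1.12% of all genes. The 33 windows had a median GC content of 56.3%, against 52.7% for all windows, and the motif shares were not adjusted for it. A match is a string of letters and says nothing of binding in these livers. The sites below are shown with 10 bases on each side and the match in capitals, first for *Lgmn*, the gene with the smallest adjusted p among the 37, then for the gene with the lowest difference (*Gaa*) and for 4 others that did not pass the test.
Lgmn site: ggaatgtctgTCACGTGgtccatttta
Gaa site: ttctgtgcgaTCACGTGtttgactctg
Lamp1 site: gggcaagataTCACGTGgtccagcgcc
Mcoln1 site: gtcgcgcttgTCACGTGttcagttcag
Gla site: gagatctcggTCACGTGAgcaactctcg
Atp6v0d1 site: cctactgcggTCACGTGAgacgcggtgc
The *Lgmn* stretch is chr12:102439126-102439152 on the minus strand, with the first capital at -50 from the annotated start. The *Gaa* stretch is chr11:119267812-119267838 on the plus strand, with the match at -141. That of *Lamp1*, which holds the most matches of the 10 genes, is chr8:13159089-13159115 on the plus strand at -62, and its other matches begin at -45, -28 and -16. The *Mcoln1* stretch lies at chr8:3500437-3500463 on the plus strand at -72, the *Gla* stretch at chrX:134601183-134601210 on the minus strand at -195, and the *Atp6v0d1* stretch at chr8:105566051-105566078 on the minus strand at -4. The *Mcoln1* stretch shown holds TCACGTG, and the 8-base palindrome of this gene begins at -46. *Gla* has another palindrome, which begins at -228.

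Of the 5 genes that passed the test below, *Lgmn*, *Hexa* and *Laptm5* had windows, and these are shown because they are the promoters of the genes that were higher in knockout livers. *Lgmn* has 2 annotated starts, and only the window of the downstream one holds the motif (in capitals).
Lgmn downstream start: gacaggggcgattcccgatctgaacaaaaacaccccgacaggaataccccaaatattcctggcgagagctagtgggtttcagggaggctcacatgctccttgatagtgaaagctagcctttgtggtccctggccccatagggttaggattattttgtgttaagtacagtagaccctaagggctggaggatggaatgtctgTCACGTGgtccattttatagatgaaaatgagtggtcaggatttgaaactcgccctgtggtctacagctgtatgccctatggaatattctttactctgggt
Hexa: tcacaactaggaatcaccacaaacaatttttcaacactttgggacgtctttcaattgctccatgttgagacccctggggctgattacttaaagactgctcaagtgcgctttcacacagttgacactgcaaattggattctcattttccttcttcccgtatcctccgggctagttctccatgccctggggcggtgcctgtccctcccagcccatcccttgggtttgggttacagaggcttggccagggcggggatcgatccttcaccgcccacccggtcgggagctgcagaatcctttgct
Laptm5: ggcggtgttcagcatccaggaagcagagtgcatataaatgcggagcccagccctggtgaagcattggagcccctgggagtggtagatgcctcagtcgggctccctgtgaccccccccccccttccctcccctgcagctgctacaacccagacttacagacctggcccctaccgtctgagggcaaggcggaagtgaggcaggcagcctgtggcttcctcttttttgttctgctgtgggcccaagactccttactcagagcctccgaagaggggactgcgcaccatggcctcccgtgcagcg
The *Lgmn* window is chr12:102439043-102439342 on the minus strand, the *Hexa* window chr9:59539290-59539589 on the plus strand and the *Laptm5* window chr4:130913066-130913365 on the plus strand. Neither the *Hexa* nor the *Laptm5* window holds CACGTG. The 10 genes with TCACGTG had a median difference of 0.06 (range -0.18 to 0.71), with 1 gene higher. The 21 genes with a window and no match had a median of 0.02 (range -0.13 to 0.53), with 2 genes higher. No test was made between these sets.

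Most of the 37 genes did not pass the test for genotype. Of the 37, 5 (13.5%) were higher in knockout livers, where 3.11% of all genes were, 0 were lower and 32 did not pass (limma, adjusted over all 22180 genes). The shares over all genes include dimmer genes. Mean log2 signals ran from 6.04 to 12.55 for the 37 and from 2.21 to 14.01 for all genes. No share over genes of like level is given here. The 5 were *Lgmn*, *Hexa*, *Laptm5*, *Galns* and *Atp6v0d2*, a peptidase, a hydrolase subunit, a membrane protein, a sulfatase and a proton pump subunit. They came from 5 different role groups. Without adjustment, 9 genes were higher and 0 lower at p below 0.05, where 9.65% of all genes were higher and 7.67% lower. The median difference of the 37 genes was 0.07, against -0.01 over all genes, with 26 positive and 11 negative (48.1% of all genes were positive). This median lay between 0.03 and 0.11 when any 1 mouse was left out. All knockout livers lay above all control livers for 2 of the 37 genes, *Lgmn* and *Hexa* (3.39% of all genes), and below them for 0 (1.93% of all genes). Each knockout liver lay above the controls of its own sex for 4, with *Galns* and *Asah1* added (5.2% of all genes), and below them for 0 (3.72% of all genes). The count of 5 depended on single mice. It was 1 without control 2 or control 4, 2 without knockout 2 or knockout 4, 3 without control 3 or knockout 1, and 4 to 6 without any other mouse. The higher calls over all 22180 genes also moved in these fits, from 233 to 825, against 690 with every mouse kept.

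**Figure D1:**
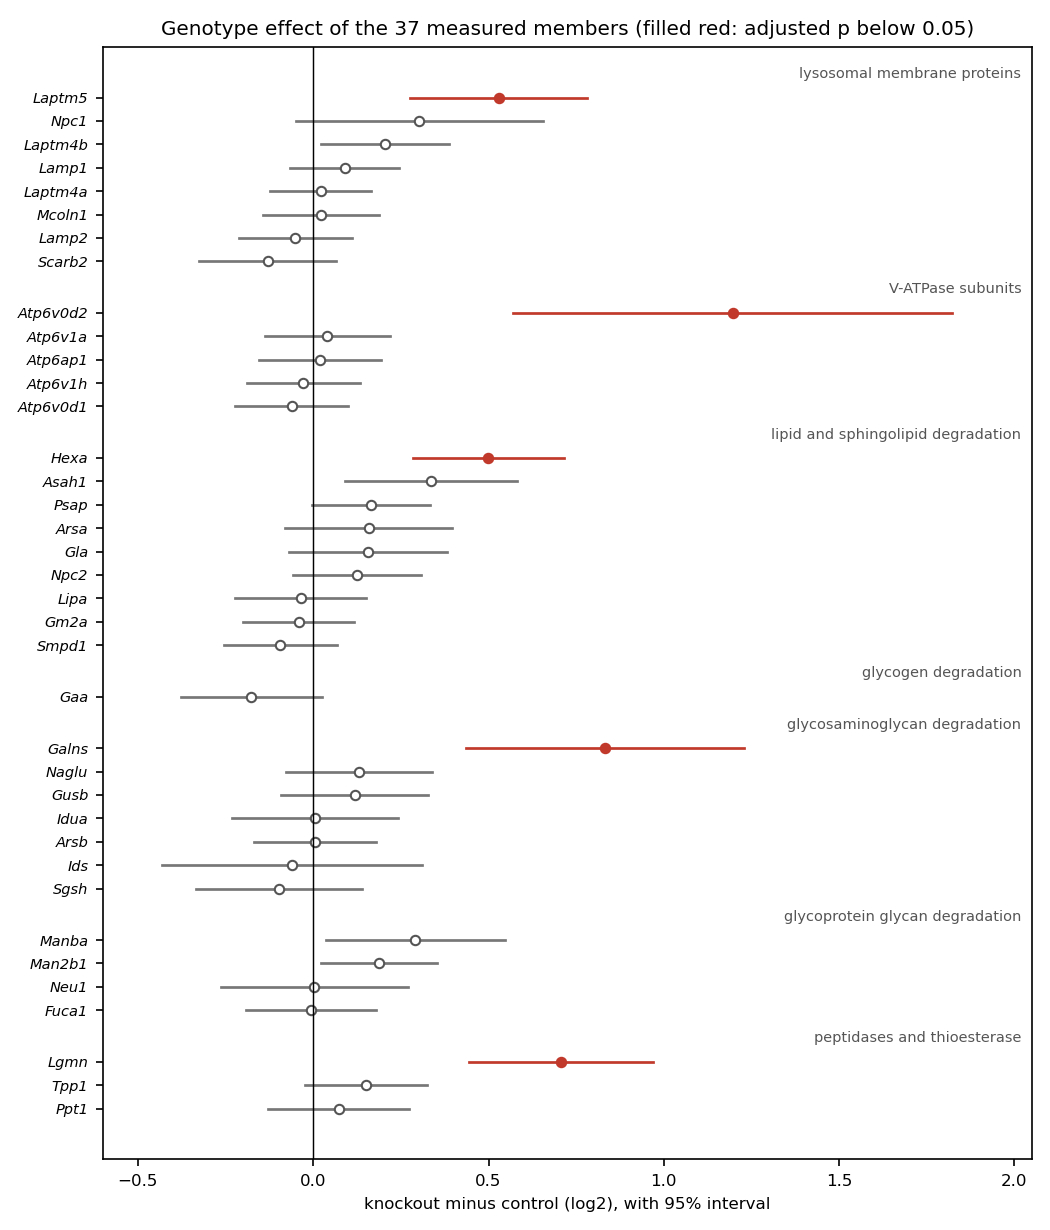
Difference between knockout (n = 6) and control (n = 4) livers for each of the 37 measured genes (x axis, log2, knockout minus control), grouped by role down the page, with lines for the 95% intervals from limma. The 5 filled red points passed an adjusted p of 0.05 and all lie right of 0, while the other 32 run from -0.18 for *Gaa* to 0.34 for *Asah1*.

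Among the peptidases and the thioesterase, 1 of 3 genes was higher (median of the 3, 0.15). *Lgmn* encodes legumain, an asparagine-specific endopeptidase that also processes cathepsins. Its log2 signal was 11.15, 11.43, 11.21, 11.44, 11.41 and 11.11 in knockout mice 1 to 6, against 10.87, 10.29, 10.66 and 10.52 in control mice 1 to 4. The groups did not overlap. The difference was 0.71 (SE 0.12, adjusted p = 0.00937), or 1.63-fold (95% interval 1.36 to 1.96), and the gene passed the test whichever mouse was left out. *Tpp1*, the tripeptidyl peptidase of the lysosome, and *Ppt1*, which removes palmitate from proteins, did not pass, with differences of 0.15 and 0.07.

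Of the 9 measured genes of lipid and sphingolipid degradation, 1 was higher and the median was 0.16. *Hexa* encodes the alpha subunit of beta-hexosaminidase, which removes the terminal sugar of GM2 ganglioside. It read 10.83, 10.69, 10.46, 10.90, 10.95 and 10.61 in knockout mice 1 to 6, against 10.28, 10.08, 10.34 and 10.26 in control mice 1 to 4. The lowest knockout value, in male 3, was still above the highest control value, in female 3. The difference was 0.50 (SE 0.10, adjusted p = 0.0181), or 1.41-fold (1.22 to 1.64), and missed the threshold without control 2 (0.0785) or control 4 (0.0722). *Asah1*, acid ceramidase, had the smallest adjusted p of the 32 genes that did not pass, and its values per mouse are given after they were seen. They were 10.24, 10.19, 9.82, 10.22, 10.16 and 9.74 in knockout mice 1 to 6, against 9.73, 9.76, 9.74 and 9.68 in control mice 1 to 4. Knockout mice 1, 2, 4 and 5 stood well above the narrow range of the controls, knockout 3 just above it and knockout 6 inside it. Its difference was 0.34 (SE 0.11, adjusted p = 0.133), and it passed only without knockout 6 (0.0483). The other 7 genes did not pass. *Psap*, the precursor of the saposins that present sphingolipids to their hydrolases, differed by 0.16, and *Npc2*, which hands cholesterol to NPC1, by 0.13. *Gla*, alpha-galactosidase A, and *Arsa*, which desulfates sulfatide, both differed by 0.16. *Lipa*, the acid lipase of cholesteryl esters and triglycerides, differed by -0.04, *Gm2a*, the GM2 activator, by -0.04 and *Smpd1*, acid sphingomyelinase, by -0.09.

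Among the 7 genes of glycosaminoglycan degradation, 1 was higher and the median was 0.01. *Galns* encodes the sulfatase that acts on keratan sulfate and chondroitin 6-sulfate. It read 8.96, 9.05, 8.37, 8.49, 8.74 and 7.88 in knockout mice 1 to 6, against 8.18, 7.94, 7.66 and 7.23 in control mice 1 to 4. Within each sex the knockout values lay above the control values, and across the sexes they overlapped, since knockout female 6 read below both control males. The difference was 0.83 (SE 0.18, adjusted p = 0.0269), or 1.78-fold (1.35 to 2.35). Without a term for sex the adjusted p was 0.0772, and leaving out control 2, 3 or 4 or knockout 1, 2 or 4 gave 0.0508 to 0.105. The other 6 genes, which remove sulfates and sugars from heparan and dermatan sulfate in turn, did not pass. Their differences were 0.13 for *Naglu*, 0.12 for *Gusb*, 0.01 for *Idua*, 0.00 for *Arsb*, -0.06 for *Ids* and -0.10 for *Sgsh*.

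Lysosomal membrane proteins had 1 of 8 genes higher, with a median of 0.06. *Laptm5* encodes a lysosomal membrane protein known from blood and immune cells. It read 6.25, 6.45, 5.99, 6.36, 6.16 and 6.33 in knockout mice 1 to 6, against 6.00, 5.57, 5.77 and 5.56 in control mice 1 to 4. Only knockout 3 lay within the control range, just under control 1, and the rest lay above it. The difference was 0.53 (SE 0.12, adjusted p = 0.0269), or 1.44-fold (1.21 to 1.72), and without control 2, 3 or 4 or knockout 2 or 4 the adjusted p was 0.0589 to 0.107. Its relatives *Laptm4b* and *Laptm4a* differed by 0.21 (adjusted p = 0.222) and 0.02. *Npc1*, which exports cholesterol from the lysosome, differed by 0.30 with an interval of -0.05 to 0.65 (adjusted p = 0.378). The major coat proteins of the lysosomal membrane, *Lamp1* and *Lamp2*, differed by 0.09 and -0.05, with intervals of -0.07 to 0.25 and -0.21 to 0.11. *Mcoln1*, the calcium channel TRPML1, differed by 0.02, and *Scarb2*, the receptor that carries beta-glucocerebrosidase to the lysosome, by -0.13. None of these 7 passed.

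Of 5 V-ATPase subunits, 1 was higher and the median was 0.02. *Atp6v0d2* encodes the d2 isoform of the d subunit of the membrane sector, an isoform known from osteoclasts, macrophages and kidney. It read 7.63, 7.19, 6.72, 9.16, 9.10 and 8.58 in knockout mice 1 to 6, against 6.09, 5.12, 8.74 and 7.53 in control mice 1 to 4. The knockout males read above both control males, whereas knockout female 6 read below control female 3. The difference was 1.20 (SE 0.29, adjusted p = 0.0392), or 2.29-fold (1.48 to 3.54), the largest among the 37 genes. It did not pass without a term for sex (adjusted p = 0.423), and without control 2 or 4 or knockout 1, 2, 4 or 5 the adjusted p was 0.069 to 0.139. *Atp6v0d1*, the isoform of the same subunit found in most cells, read 10.74 to 10.88 in knockout livers and 10.75 to 11.00 in control livers, a difference of -0.06 (interval -0.22 to 0.10, adjusted p = 0.749). The remaining subunits *Atp6v1a* (0.04), *Atp6ap1* (0.02) and *Atp6v1h* (-0.03) did not pass either.

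Glycoprotein glycan degradation had 0 of 4 genes past the adjusted threshold in limma, with 2 at an unadjusted p below 0.05, and a median of 0.10. *Manba*, beta-mannosidase, had the smallest adjusted p of the group. It read 8.27, 8.45, 8.12, 8.37, 8.44 and 7.94 in knockout mice 1 to 6, against 8.06, 7.98, 8.11 and 7.75 in control mice 1 to 4, with knockout 6 inside the control range. The difference was 0.29 (SE 0.12, adjusted p = 0.213). *Man2b1*, lysosomal alpha-mannosidase, differed by 0.19 (adjusted p = 0.215), *Neu1*, sialidase, by 0.00, and *Fuca1*, alpha-fucosidase, by -0.01. *Gaa*, acid alpha-glucosidase, stood alone for glycogen degradation and had the lowest difference of the 37 genes. It read 10.29, 9.99, 9.94, 10.19, 10.20 and 9.94 in knockout mice 1 to 6, against 10.24, 10.18, 10.28 and 10.39 in control mice 1 to 4. The groups overlapped through knockout 1 and knockout mice 4 and 5, and the difference was -0.18 (SE 0.09, adjusted p = 0.362).

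The 32 genes that did not pass had 95% intervals within 0.5 of 0 on the log2 scale in 29 cases, and all these intervals lay between -0.43 and 0.65. *Arsb*, *Npc1* and *Smpd1* had a second, dimmer probe set, with differences of -0.08, 0.06 and -0.12 and no call.

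**Figure D2:**
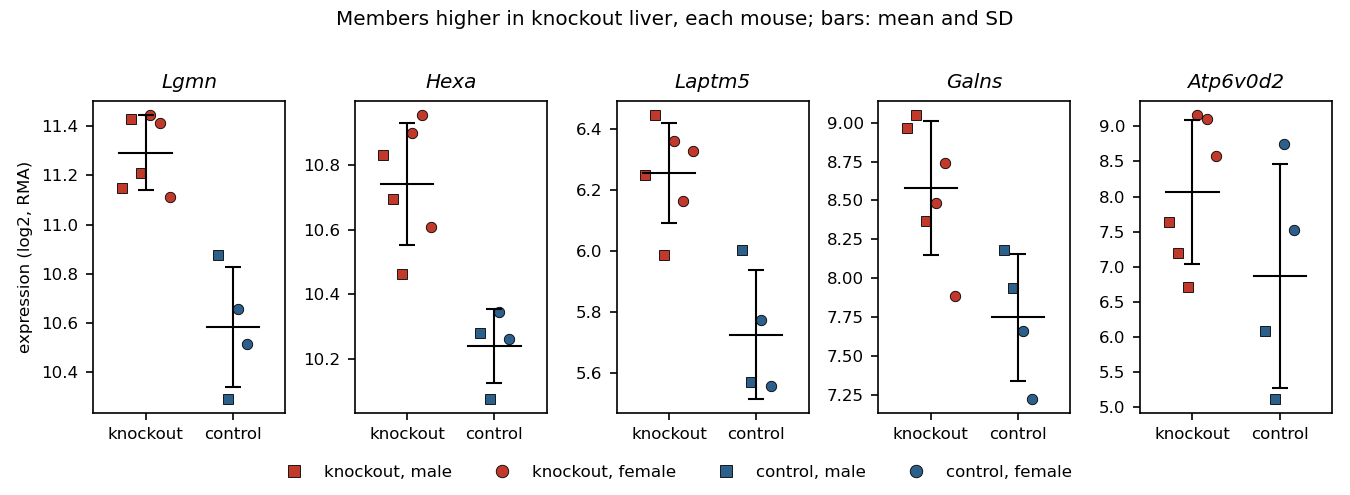
Log2 signal of the 5 genes that passed the test in each knockout (left, n = 6) and control (right, n = 4) liver, with squares for males, circles for females and bars for mean and SD. *Lgmn* and *Hexa* do not overlap between the groups, while the others overlap in at least 1 mouse, and *Atp6v0d2* spreads from 5.12 to 9.16.

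The knockout livers differed among themselves. Measured against the mean of control mice of the same sex, the 37 genes had a median deviation of 0.12, 0.14, -0.02, 0.09, 0.16 and -0.03 in knockout mice 1 to 6. Male 3 and female 6 thus stood at the control level, and the other 4 above it. In knockout mice 1, 2, 4 and 5, 24 to 26 of the 37 genes lay above both controls of their sex and 3 to 8 below both. In knockout 3 the numbers were 12 above and 14 below, and in knockout 6 they were 11 and 17. Knockout 3 had the lowest value of the knockout males for 26 of the 37 genes, and knockout 6 the lowest of the knockout females for 32. None of these counts per mouse was made over all 22180 genes, so they have no background to be read against. The 5 called genes were above the mean of their sex's controls in all 6 knockout livers, knockout mice 3 and 6 included. They were higher by 0.20 to 1.11 in knockout 3 and by 0.30 to 0.66 in knockout 6. These genes were called on these same livers, so this follows largely from how they were chosen. All the values per mouse were found on inspection, and no test was made of the 2 livers against the other 4. The median deviation over all 22180 genes was between -0.01 and 0.01 in each knockout liver.

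**Figure D3:**
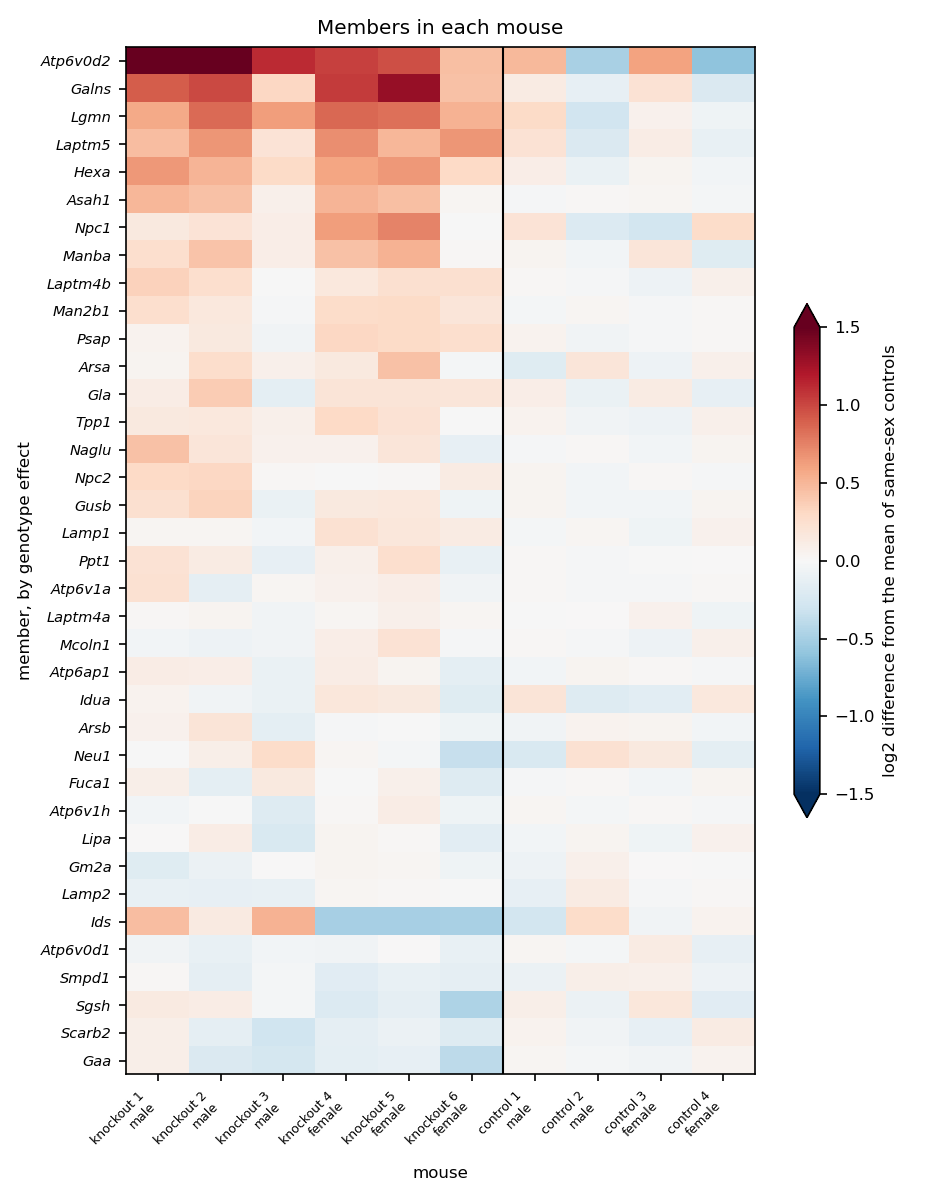
Difference of each of the 37 genes (rows, ordered by genotype effect) from the mean of same-sex control livers (colour, log2) in the 6 knockout livers (left of the line) and the 4 control livers (right). The columns of knockout 3 and knockout 6 are paler or bluer than those of the other knockout livers for most genes. The top 5 rows are red in all 6, which the ordering by genotype effect largely fixes.

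Macrophages are rich in lysosomes, and their markers moved in the same livers. Of 11 macrophage markers 4 were higher and 0 lower: *Trem2* (1.11), *Lyz2* (0.63), *C1qb* (0.58) and *C1qa* (0.57), a lipid receptor, lysozyme and chains of complement C1q. All 11 had a positive difference, with a median of 0.50, and all 11 were higher at an unadjusted p below 0.05. Their summed signal (values taken back from log2) was 6113 to 8498 in knockout livers and 3993 to 5718 in control livers. Knockout 3 had the lowest sum among the knockout livers, 6113, and knockout 6 the next, 6803, while the other 4 had 7689 to 8498. Of 6 markers of resident Kupffer cells 1 was higher (*Cd5l*, 0.78), with 5 higher unadjusted, and their sum was 4568 to 7280 in knockout livers and 3176 to 4879 in control livers, again lowest among knockout livers in knockout 6 (4568) and knockout 3 (5077). The part of macrophages in the values of the 37 genes was not tested. Hepatocyte markers gave 0 of 10 past the adjusted threshold in limma (1 lower and 0 higher at an unadjusted p below 0.05), with summed signals of 82719 to 92118 in knockout livers and 89471 to 94872 in control livers. Bile duct markers, with 4 of 6 higher (*Muc1* 1.22, *Epcam* 1.14, *Sox9* 1.09 and *Krt19* 0.52), had 5 of 6 higher unadjusted and summed to 948 to 1368 in knockout livers and 450 to 690 in control livers, without overlap. Stellate cell and fibroblast markers had 3 of 8 higher (*Col1a1* 0.91, *Pdgfrb* 0.71 and *Col3a1* 0.71, with 4 higher unadjusted), neutrophil markers 1 of 8 (*Csf3r* 0.50, with 3 higher unadjusted), and lymphocyte and endothelial markers 0 of 7 and 0 of 6, with 0 and 1 at an unadjusted p below 0.05. The summed ranges of these lists were 6144 to 7062 in knockout and 5519 to 6357 in control livers for stellate cells and fibroblasts, 220 to 312 and 198 to 243 for neutrophils, 352 to 443 and 292 to 426 for lymphocytes, and 4934 to 6031 and 4289 to 6058 for endothelial cells, all with overlap. The order of the knockout livers was not the same in every list. Knockout 6 had the highest sums of neutrophil (312) and lymphocyte (443) markers and the next to highest sum of bile duct markers (1309), whereas knockout 3 had the lowest sums of these lists among knockout livers (220, 352 and 948).

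Other genes of the lysosome differed by list. Of 102 measured genes in 7 lists, 6 were higher and 0 lower, where 3.11% and 1.14% of all genes were. Cathepsins, the main lysosomal proteases, had 1 of 13 higher and a median of 0.18, and 7 of the 13 were higher and 0 lower at an unadjusted p below 0.05 (9.65% and 7.67% of all genes). *Ctss*, known from antigen-presenting cells, read 9.40 to 10.02 in knockout livers and 8.88 to 9.37 in control livers (difference 0.74, adjusted p = 0.0118). Other membrane proteins had 2 of 17 higher, the tetraspanin *Cd63* (1.85, adjusted p = 0.0128) and the macrophage sialomucin *Cd68* (1.21, adjusted p = 0.0493), with 4 higher and 2 lower unadjusted. None of 11 other hydrolases and none of 16 other V-ATPase subunits passed in limma, with 0 and 2 higher at an unadjusted p below 0.05. Mannose 6-phosphate tagging and sorting had 1 of 13 higher, *Cln6*, a protein of hydrolase export from the endoplasmic reticulum (0.72, adjusted p = 0.048), with 2 higher and 1 lower unadjusted. Among 17 genes of MiT/TFE and nutrient signalling 2 were higher, with 3 higher and 2 lower unadjusted. *Gpnmb*, a glycoprotein known as a MITF target, read 7.41 to 9.27 in knockout livers and 5.16 to 7.34 in control livers (difference 2.91, adjusted p = 0.00701). *Rragd*, a Rag GTPase that carries nutrient signals to mTORC1 on the lysosome, read 7.28 to 9.32 in knockout livers and 5.55 to 6.12 in control livers (difference 2.18, adjusted p = 0.00706). Both exceeded the difference of each of the 37 genes, and both passed without any 1 mouse. The autophagy list gave 0 of 15, with 2 higher and 2 lower at an unadjusted p below 0.05. *Ctss* and *Cd63* missed the threshold without control 2 (0.0568 and 0.0606) or control 4 (0.0522 and 0.0562). *Cd68* missed it without control 2, 3 or 4 or knockout 2, 4, 5 or 6 (0.0532 to 0.179), and *Cln6* without control 2, 3 or 4 or knockout 1, 2, 4 or 5 (0.0608 to 0.17). *Cd68* also missed it with 1 effect averaged over the 4 groups (0.0616), trend and robust moderation (0.115), every probe set tested (0.0518), the most variable probe set (0.05) and 75th percentile centring (0.0509). *Cln6* did so without a term for sex (0.0508), with every probe set tested (0.0507) and with 75th percentile centring (0.051).

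**Figure D4:**
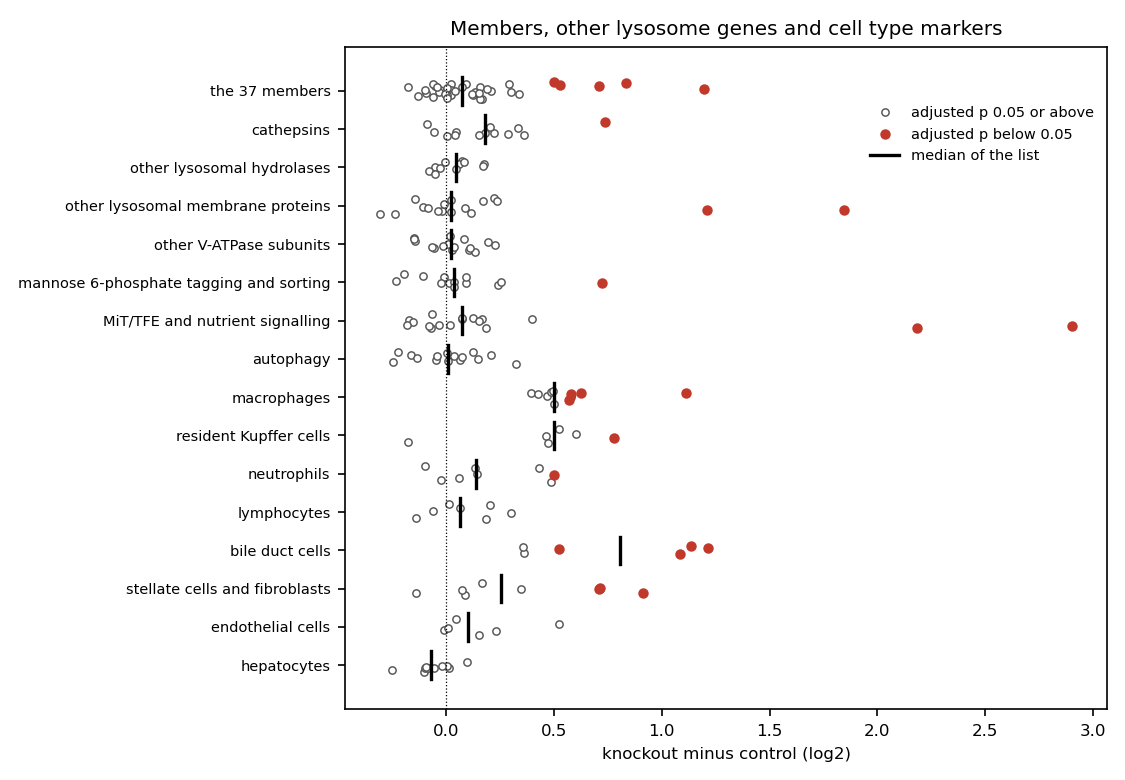
Difference between knockout and control livers (x axis, log2) of every measured gene in the 37-gene set, the 7 lists of other lysosomal genes and the 8 lists of cell type markers, 1 point per gene and a bar for the median of each list. Red points passed an adjusted p of 0.05, and the macrophage, Kupffer cell and bile duct lists have medians of 0.50, 0.50 and 0.81, against 0.07 for the 37 genes.

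Within a single sex, 3 knockout mice stood against 2 controls and 0 of the 37 genes passed in limma in females (0.699% of all genes higher, 0.207% lower) or in males (0.266% higher, 0.0812% lower). The genotype effect differed between the sexes for 0 of the 37 genes (0.00451% of all genes), and for 1 at an unadjusted p below 0.05 (6.14% of all genes). That gene was *Ids*, the sulfatase that starts the breakdown of heparan and dermatan sulfate. It read 8.18, 8.18 and 8.18 in knockout females 4, 5 and 6, against 8.62 and 8.73 in control females 3 and 4. In males it read 8.23, 7.90 and 8.29 in knockout mice 1, 2 and 3, against 7.49 and 8.04 in control mice 1 and 2. The female values lay apart between genotypes, knockout below control, and the male values overlapped. The effect was -0.49 in females and 0.37 in males, a difference of -0.87 (SE 0.23, unadjusted p = 0.00374, adjusted p = 0.748). *Sgsh* and *Psap* had the next smallest values (unadjusted p = 0.115 and 0.137). None of the 5 genes higher overall passed a test of the difference between sexes (unadjusted p from 0.192 to 0.871). Their effects in females and males were 0.74 and 0.68 for *Lgmn*, 0.52 and 0.48 for *Hexa*, 0.93 and 0.74 for *Galns*, 0.62 and 0.44 for *Laptm5*, and 0.81 and 1.58 for *Atp6v0d2*. The difference for *Atp6v0d2* was -0.77, with an interval of -1.98 to 0.45.

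*Atp6v0d2* values also stood apart by sex in both genotypes. Its mean was 8.95 in knockout females and 7.18 in knockout males, and 8.13 in control females and 5.60 in control males. Among controls alone the difference, female minus male, was 2.53 (SE 0.43, adjusted p = 0.0567), and 0 of the 37 genes passed there in limma (0.122% of all genes higher in females, 0.0541% lower). At an unadjusted p below 0.05, in either direction, there were 3 of the 37 genes, where 2423 of all 22180 genes were. The 3 were *Atp6v0d2*, *Ids* (0.91, adjusted p = 0.112) and *Arsa* (-0.70, adjusted p = 0.192). In the sex term of the fit over all 10 mice, an analysis added after the values had been seen, 1 of the 37 genes was higher in females (0.284% of all genes) and 1 lower (0.207%). *Atp6v0d2* was higher by 2.07 (SE 0.28, adjusted p = 0.0065), and *Arsa* lower, with a difference of -0.67 (SE 0.11, adjusted p = 0.0176). *Arsa* read 7.20, 7.49 and 7.02 in knockout females 4, 5 and 6 and 6.97 and 7.13 in control females 3 and 4. In males it read 7.80, 8.02 and 7.83 in knockout mice 1, 2 and 3 and 7.57 and 7.94 in control mice 1 and 2. All female values lay below all male values.

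**Figure D5:**
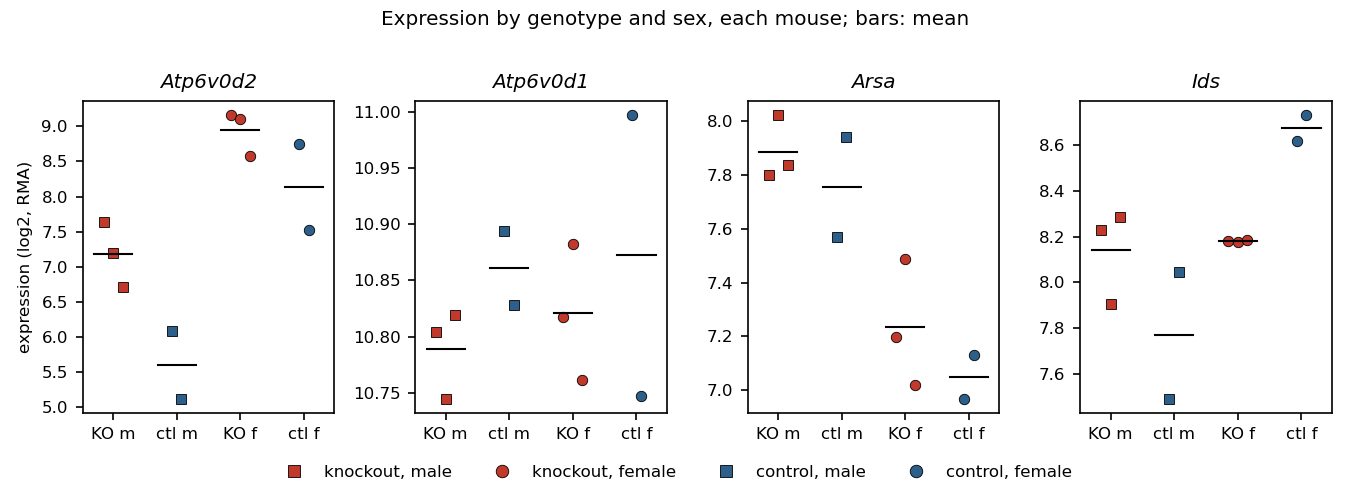
Log2 signal of *Atp6v0d2*, *Atp6v0d1*, *Arsa* and *Ids* in each liver by sex and genotype, from left to right knockout males, control males, knockout females and control females, with bars for the means. *Atp6v0d2* has higher means in females (8.95 in knockout, 8.13 in control) than in males (7.18 in knockout, 5.60 in control), and *Arsa* reads lower in all females than in all males.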

How the data were processed

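Liver RNA of 10 mice was hybridised to 1 array each. The deposited log2 values, 1 for each probe set and mouse, come from RMA as run by the authors in oligo (versions not given), and were not scaled further. The platform annotation gave 1 symbol to 23521 of the 41345 probe sets, several to 1820 and none here to 16004. Probe sets with several symbols were left out, and a gene with several probe sets was represented by that of highest mean, which left 22180 genes. All 37 measured genes matched RefSeq by identifier.

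A model of genotype and sex was fitted to every gene with limma 3.58.1 under R 4.3.3, and p-values were adjusted by Benjamini-Hochberg across the 22180 genes, with a threshold of 0.05. A fit of 4 groups (genotype by sex) gave the effects per sex, the difference between them and the female minus male contrast in controls. The genotype fit was tested on simulated data with noise drawn independently for each gene and mouse. For the fit of 4 groups, only the averaged effect and the difference between sexes were checked in this way. Promoter windows were searched in Python 3.11.15.

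The 37 genes and the lists, written from general knowledge, were chosen with earlier results of these data known. Values per mouse are given for genes past the threshold and, in role groups with none, for the gene with the smallest adjusted p. Up to 4 genes were named from each other list, and the 3 smallest p-values for a difference between sexes. *Asah1*, *Arsa* and *Lamp1*, *Gla*, *Mcoln1* and *Atp6v0d1* as promoter examples were singled out after their values were seen. The limma calls for genotype, the effects of the 37 genes and their median were also recomputed under other settings. These were different model terms, choices of probe set, scalings and moderation, weighted arrays, and leaving out each mouse in turn. The planned contrasts by sex were not recomputed with different model terms. The separation of the groups, the deviations per mouse, the marker sums and the promoter comparison were not recomputed. No slide or scan date was at hand.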

Additional observations from a re-analysis of the deposited data

Results flagged for a closer look

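Of 74 groups of 4 to 6 livers examined, 1 gene in 1 group of livers each time, 2 held a liver far from the rest of its group, where chance gives about 1 in 20. *Laptm4b*, a lysosomal membrane protein, read 10.26 in knockout 3, below the 10.53 to 10.67 of the other 5 knockout livers. *Ids* read 7.90 in knockout 2, below the 8.18 to 8.29 of the others.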

How the results depend on the processing

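All 21 alternatives, 10 of them leaving out 1 mouse, kept the positive sign of the 5 called genes, and 31 of the 32 others never passed. Of these 32, 13 changed sign in at least 1 alternative. Of their 95% intervals, 29 lie within 0.5 of 0, and the 10 arrays limit the precision of all values. The count of 5 genes became 3 without a term for sex. Lower calls over all genes, 252, became 165 without it, 409 over genes above the median level and 499 with array weights. Marker genes higher, 13, became 24 with array weights, and those lower, 0, became 1 with trend and robust moderation, which left *Atp6v0d2* at an adjusted p of 0.0739. With array weights 1 of the 37 genes passed in females, and with median centring 1 (*Atp6v0d2*) did for sex in controls, against 2 in the sex term over all mice, chosen after seeing the data. Without 1 mouse, higher calls ran from 1 to 6 among the 37 genes, 233 to 825 over all genes (lower 47 to 449), 2 to 7 among pathway genes (lower 0 to 1) and 3 to 16 among markers. Such fits gave 0 to 1 calls in females and 0 to 1 for sex in controls, 1 each without control 1 or 2 in females and without control 2 or 4 for sex. Lowest counts over all genes came without control 2.

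Replicate numbers are shared between groups and do not pair the mice: same-number residuals correlated at -0.24 to 0.12, and 0 of 4 controls matched best the knockout of their number. A fit with the number as a block gave 2 of the 37 genes higher, 208 genes higher and 49 lower in all, 2 pathway genes and 5 markers. Knockout mice 5 and 6 have no control of their number, and number 3 joins a control female with a knockout male. With a term for sex, the genotype effect of the block fit thus rests on numbers 1, 2 and 4. In the block fit the adjusted p was 0.108 for *Lgmn*, 0.0558 for *Hexa*, 0.116 for *Laptm5*, 0.0636 for *Cd63*, 0.0512 for *Ctss*, 0.24 for *Cd68* and 0.071 for *Cln6*.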
